A study of Mus musculus with 18 samples.

Results

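The comparison described here is that of liver metastases labelled with a hairpin against Yap and metastases labelled with a control hairpin, both grown in mice on a high-fat diet. It was defined by the columns of 1 deposited table of estimated gene counts, 4 libraries labelled shCon (genotype shControl) and 4 labelled shYap, which are 8 of the 18 libraries of the study. All 8 came from tumours of MC38, a mouse colon carcinoma line, that had been seeded in the liver of WT mice by injection into the spleen, and RNA was taken from the tumour tissue. The labels give neither the age of the mice, nor the sequence of the hairpins, nor the number of clones, and nothing in them tells whether each library came from an animal of its own, so p-values measure only the spread between these samples. Of the 24778 genes in the table, 16571 had counts high enough to be tested. Libraries are named by the replicate number of their titles.

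YAP is a transcriptional coactivator with no DNA-binding domain of its own. The Hippo pathway, a kinase cascade that ends in the LATS kinases, phosphorylates YAP and its paralogue TAZ and so keeps them in the cytoplasm. In the nucleus they bind TEAD factors and switch on genes such as Ccn1, Ccn2 and Ankrd1. Tumour cells with active YAP are known to shape the immune cells and the matrix around them. RNA of whole tumour tissue mixes that of the hairpin-bearing cancer cells with that of leukocytes, stroma and liver of the host. In such RNA, fewer cells of a type and less RNA per cell cannot be told apart.

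The libraries held 17207214 to 21309950 estimated counts each, and 2 of them stood apart. The shCon replicates 1 to 3 lay at 0.394 to 0.482 of each other, as the root mean square difference of log2 CPM (counts scaled to a common library size) over the genes tested. The library shCon replicate 4 lay farther from these, at 0.615 to 0.791, and was closest to shYap replicate 2, at 0.467. The library shYap replicate 3 lay at 0.902 to 0.946 from the other shYap libraries and at 0.811 to 0.973 from the shCon libraries. The biological coefficient of variation was 23.5% among the shCon and 33.8% among the shYap libraries. Values are therefore given below with and without these libraries where they bear on a result. The added fit without both, called the 6-library fit below, was chosen after seeing the data, and its smaller spread follows from leaving out the libraries farthest from their own group. Leaving out shCon replicate 4, which lay closest to a shYap library, can also widen the difference between the groups. Values and calls of the 6-library fit are therefore descriptive and give no separate support to a result.

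**Figure D1:**
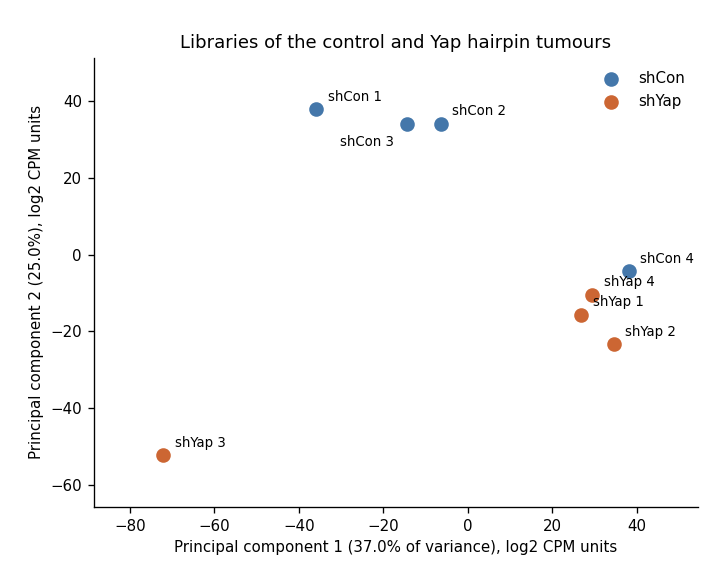
Each point is 1 library, placed by the first and second principal components of its log2 CPM values, with 37.0% and 25.0% of the variance. The shCon replicates 1 to 3 lie together at the top left, shCon replicate 4 lies among shYap replicates 1, 2 and 4, and shYap replicate 3 lies alone.

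Other tissues in the samples were read from their marker genes. Liver RNA was present in all libraries: the summed level of the 23 hepatocyte genes tested was 15139.8, 34753, 29426 and 53865 CPM in shCon replicates 1 to 4 and 34922, 56964, 17328 and 88438 CPM in shYap replicates 1 to 4. The groups overlapped, with the lowest levels in shCon replicate 1 and shYap replicate 3 and the highest in shYap replicate 4. Albumin, Alb, alone stood at 4304 to 19468 CPM in shCon and 8278 to 36888 CPM in shYap. The part of liver RNA in the results was not tested, but a fit that takes this liver level as a covariate is quoted beside the main groups. The 8 intestinal epithelial genes tested summed to 123 to 410.0 CPM in shCon and 191 to 359.7 CPM in shYap. Among the markers of this epithelium, Epcam was at 0.555 to 2.42 CPM in shCon and 0.624 to 2.37 CPM in shYap, and Vil1 at 0 to 0.0973 and 0 to 0.246 CPM, so these 2 were near 0 in every library. The summed level of the 3 muscle markers tested was 6.66 to 9.35 CPM in shCon and 2.84 to 15.8 CPM in shYap. Only 1 acinar pancreas marker had counts high enough to be tested, and it was at 2.81 to 4.997 and 2.496 to 4.896 CPM.

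The targeted gene was examined first. Yap1 (chr9:7931999-8004596 in GRCm38) was not lower in the libraries labelled shYap: its level was 73.8 to 82.4 CPM in the shCon and 70.5 to 81.4 CPM in the shYap libraries, and the ranges overlapped. The 95% interval of the log2 fold change, -0.28 to 0.203, places the level in the shYap tumours between 82.4% and 115% of that in the shCon tumours. Host cells also transcribe Yap1, and their share in the level was not tested. Below, shCon and shYap therefore name the labels of the libraries, and a direction is that of the libraries labelled shYap against those labelled shCon.

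No single gene passed the test. With edgeR's quasi-likelihood test and Benjamini-Hochberg adjustment, 0 of 16571 genes had an adjusted p under 0.05, and the smallest adjusted p was 0.149. At an unadjusted p under 0.05 there were 1804 genes, 10.9% of those tested, of which 1016 were lower (6.13%) and 788 higher (4.76%) in shYap. DESeq2 called 410 genes at an adjusted p under 0.05 (2.47%), 286 of them lower and 124 higher, and limma voom called 0, with 1786 genes at an unadjusted p under 0.05. In 1089 genes (6.57%) the 4 values of one group all lay above the 4 of the other, with shYap below shCon in 656 (3.96%) and above it in 433 (2.61%). Without shCon replicate 4 edgeR called 94 genes, 77 lower and 17 higher, and in the 6-library fit it called 1255 of 16653 genes (7.54%), 602 lower (3.61%) and 653 higher (3.92%). All 94 were among the 1255, and 306 of DESeq2's 410 genes were too, which is 74.6% of DESeq2's and 24.4% of the 6-library calls, each in the same direction. These fits share most of their libraries, so such overlap was likely beforehand and is not a replication. The median log2 fold change over all genes tested was 0.03. In what follows, log2 fold changes are of shYap against shCon from the fit of all 8 libraries and are given ± SE, and p-values are edgeR's after adjustment over all genes tested, unless another fit is named.

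The YAP pathway itself differed little between the labels, apart from Tead4. Of the 25 Hippo pathway genes tested, 12 had lower and 13 higher values in shYap, and the median log2 fold change was 0.03. An unadjusted p under 0.05 was found for 1 gene, against 10.9% of all genes tested. Leaving out shYap replicate 3 gave 16 lower and 9 higher, of which 4 and 1 had an unadjusted p under 0.05. In that fit 7.95% of all genes were lower and 6.33% higher at that p. The 1 gene with all libraries was Tead4, which encodes a DNA-binding partner of YAP. In shCon replicates 1 to 4 Tead4 (chr6:128224288-128300823) had 10.8, 9.3, 9.95 and 12.9 CPM, and in shYap replicates 1 to 4 it had 24.8, 17.8, 34.1 and 15.1 CPM. Every shYap library lay above every shCon library, with shYap replicate 3 highest. This gave a log2 fold change of 1.097 ± 0.26 (adjusted p = 0.175; DESeq2 adjusted p = 0.00898), and the 6-library fit gave 0.94 ± 0.2002 (adjusted p = 0.0301).

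The other TEAD genes did not separate the labels. Log2 fold changes were 0.04 ± 0.17 for Tead1, -0.18 ± 0.34 for Tead2 and -0.21 ± 0.29 for Tead3, and that of Wwtr1, which encodes TAZ, was 0.12 ± 0.22. Without shYap replicate 3, Tead2 gave -0.58 ± 0.22 and Tead3 -0.52 ± 0.198 (adjusted p = 0.285 and 0.287). Tead2 and Tead3 each had an adjusted p under 0.05 in 1 of the 19 alternative fits. The level of Tead2 was 56.03 to 75.5 CPM in shCon and ran from 28.3 to 105 CPM in shYap, the lowest in replicate 1 and the highest in replicate 3. Lats2, a kinase that restrains YAP and is itself a YAP target, was at 40.6 to 47.4 CPM in shCon and 27.4 to 59.8 CPM in shYap, with a log2 fold change of -0.002 ± 0.21. The sign for Wwtr1 and Tead1 turned negative without shYap replicate 3, and that for Lats2 depended on the scaling, so no direction is given for these genes.

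Genes known to be switched on by YAP and TEAD did not have lower values as a group in the shYap tumours. Of 24 such genes tested, 8 had lower and 16 higher values in shYap, with a median of 0.16, and none of the 8 had an unadjusted p under 0.05. Of the 16, 3 had such a p and 2 had groups that did not overlap, against 4.76% and 2.61% of all genes tested. The median ranged from 0.03 to 0.26 over the 19 alternative fits. Ccn1, which encodes the matricellular protein CYR61, stood at 160.2, 109.7, 75.3 and 96.5 CPM in shCon and 130.0, 143, 362 and 97.3 CPM in shYap replicates 1 to 4. The groups overlapped, and shYap replicate 3 held the highest value. Its log2 fold change was 0.73 ± 0.41 (adjusted p = 0.594) with all libraries and 0.105 ± 0.26 in the 6-library fit. Ccn2, which encodes the matrix protein CTGF, gave 0.51 ± 0.36 (adjusted p = 0.676).

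Ankrd1, a nuclear ankyrin-repeat protein widely used as a readout of YAP, was at 46.8, 42.3, 40.6 and 33.1 CPM in shCon and 83.2, 72.9, 51.5 and 43.8 CPM in shYap. The 3 highest values were those of shYap replicates 1 to 3, and shYap replicate 4 fell within the shCon range (log2 fold change 0.63 ± 0.21, adjusted p = 0.329). Areg, which encodes the EGF receptor ligand amphiregulin, was low in all tumours, at 0.451, 0.0477, 0.278 and 0.726 CPM in shCon and 1.57, 1.21, 2.67 and 2.01 CPM in shYap. Its groups did not overlap, and the log2 fold change was 2.29 ± 0.58 (adjusted p = 0.192; 6-library fit 2.61 ± 0.59, adjusted p = 0.0356). Cavin2, a coat protein of caveolae, likewise did not overlap between the groups, at 114 to 131 CPM in shCon and 159 to 264 CPM in shYap (0.65 ± 0.17, adjusted p = 0.208). Gadd45a, a gene of the DNA damage response, was at 25.3, 30.1, 102 and 15.1 CPM in shYap replicates 1 to 4, and its log2 fold change of 1.18 ± 0.55 with all libraries was 0.33 ± 0.28 without shYap replicate 3.

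The promoters of these targets are shown because they carry the TEAD recognition letters GGAATG. Among 19 of the YAP target genes with a RefSeq start site in GRCm38.p6, 7 (36.8%) held GGAATG on either strand in the 250 bases before the start. The share was 12.9% among all tested genes with such a window and 12.6% among all 32851 windows of the annotation. The windows of Ankrd1 (chr19:36119845-36120094, minus strand) and Ccn1 (chr3:145649986-145650235, minus strand) are printed 5′ to 3′ in the direction of the gene, with the motif or its reverse complement in capitals. A match is a description of the letters and not a binding site.
Ankrd1: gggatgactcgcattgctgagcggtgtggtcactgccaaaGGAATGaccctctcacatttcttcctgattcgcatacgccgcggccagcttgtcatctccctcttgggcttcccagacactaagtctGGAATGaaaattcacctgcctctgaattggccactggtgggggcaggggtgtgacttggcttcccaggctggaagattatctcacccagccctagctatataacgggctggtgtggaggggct
Ccn1: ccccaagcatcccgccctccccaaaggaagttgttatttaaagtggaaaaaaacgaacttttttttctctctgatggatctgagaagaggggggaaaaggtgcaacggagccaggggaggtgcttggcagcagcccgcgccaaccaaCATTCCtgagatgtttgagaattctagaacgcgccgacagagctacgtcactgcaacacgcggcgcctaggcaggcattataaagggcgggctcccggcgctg

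Genes of T cells had lower values in the shYap tumours, and of the 61 lists with genes tested this one had the median farthest from 0. All 17 T cell genes tested had a log2 fold change below 0, as had 46.1% of all genes tested, and the list median was -1.81 against 0.03 over all genes. Of the 17, 16 had an unadjusted p under 0.05, and in 13 the groups did not overlap, against 6.13% and 3.96% of all genes tested in this direction. DESeq2 called 13 of the 17 lower, and so did the 6-library fit, against 1.73% and 3.61% of all genes. The summed level was 177, 167, 125 and 89.01 CPM in shCon replicates 1 to 4 and 47.3, 63.2, 57.7 and 69.7 CPM in shYap replicates 1 to 4. Among the shCon libraries replicate 4 was the lowest, and it still lay above all shYap libraries. The median was -2.04 without that library, -1.71 without shYap replicate 3 and -1.71 with the hepatocyte level as a covariate.

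The genes of the T cell receptor and its signalling chain were among them. Trac (chr14:54220521-54224206), the constant region of the receptor's alpha chain, was at 23.2, 22.3, 14.2 and 7.31 CPM in shCon and 4.31, 4.998, 3.29 and 4.896 CPM in shYap. The lowest shCon value, in replicate 4, was above the highest shYap value, and the log2 fold change was -1.94 ± 0.35 (adjusted p = 0.153). Trbc2, a constant region of the beta chain, gave -2.33 ± 0.38 (adjusted p = 0.149). Lat, the adaptor that links the receptor to downstream kinases, gave -2.13 ± 0.34, Cd247, its zeta signalling chain, -1.55 ± 0.27, and the adhesion receptor Cd2 -2.12 ± 0.36, each with an adjusted p of 0.149.

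The lineage markers had lower means in shYap as well. Cd8a, the coreceptor of cytotoxic T cells, was at 24.1, 21.9, 14.4 and 5.86 CPM in shCon and 1.11, 4.29, 3.63 and 4.03 CPM in shYap, with no overlap and a log2 fold change of -2.34 ± 0.52 (adjusted p = 0.174). Cd4, the coreceptor of helper T cells that some macrophages also carry, was at 5.18 to 10.6 CPM in shCon and 2.18 to 5.66 CPM in shYap, with overlapping groups and a log2 fold change of -1.03 ± 0.34 (adjusted p = 0.318). Foxp3, the factor that defines regulatory T cells, was at 2.03 to 4.96 CPM in shCon and 0.0544 to 1.87 CPM in shYap (-1.79 ± 0.696, adjusted p = 0.395). Its groups did not overlap, at levels of a few CPM or less.

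Genes of killing by T cells and natural killer cells had lower values too, with more overlap. Of 11 such genes tested, 10 had lower values in shYap, 7 of them with an unadjusted p under 0.05. Over all genes tested these shares were 46.1% and 6.13%. The median log2 fold change of the list was -1.27. Klrk1, the activating receptor NKG2D, was at 14.8, 10.3, 9.25 and 3.099 CPM in shCon and 2.89, 2.58, 2.27 and 2.88 CPM in shYap. The shYap values lay close together, and shCon replicate 4 was just above them (-1.82 ± 0.41, adjusted p = 0.169). Nkg7, a cytotoxic granule protein, was at 6.59 to 22.04 CPM in shCon and 2.23 to 7.02 CPM in shYap (-2.01 ± 0.46, adjusted p = 0.175). Gzmb, which encodes the granule protease granzyme B, was at 3.54 to 9.49 and 1.81 to 4.62 CPM (-1.28 ± 0.37, adjusted p = 0.255), and in both genes shCon replicate 4 lay below shYap replicate 4. Tbx21, the factor T-bet that drives the type 1 programme, did not overlap between the groups (-2.12 ± 0.41, adjusted p = 0.156).

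Immune checkpoint genes were split. Of the 10 tested, some are carried by T cells and others by tumour and myeloid cells. In shYap 7 had lower values (46.1% of all genes tested), 4 of these with an unadjusted p under 0.05 (6.13%), and 3 had higher values. Their summed level was 258, 207, 204 and 187 CPM in shCon replicates 1 to 4 and 166, 168, 270.4 and 163 CPM in shYap replicates 1 to 4, the highest of all in shYap replicate 3. Lag3 was at 9.31, 7.58, 5.23 and 4.17 CPM in shCon and 2.79, 3.33, 3.403 and 3.37 CPM in shYap, with no overlap (-1.03 ± 0.28, adjusted p = 0.216). Pdcd1, which encodes PD-1, was at 1.31 to 6.11 and 0.0507 to 1.904 CPM (-1.71 ± 0.74, adjusted p = 0.453), and Ctla4 at 0.291 to 5.16 and 0.151 to 1.13 CPM (-2.14 ± 0.87, adjusted p = 0.4205). Cd274, which encodes the ligand PD-L1 that cancer cells and macrophages can carry, overlapped between the groups (-0.51 ± 0.401, adjusted p = 0.717; -0.79 ± 0.398 without shYap replicate 3).

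B cell genes were split. Of 12 tested, 8 had lower and 4 higher values in shYap, none had an unadjusted p under 0.05 and the median was -0.196, which changed sign to 0.1996 without shCon replicate 4.

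**Figure D2:**
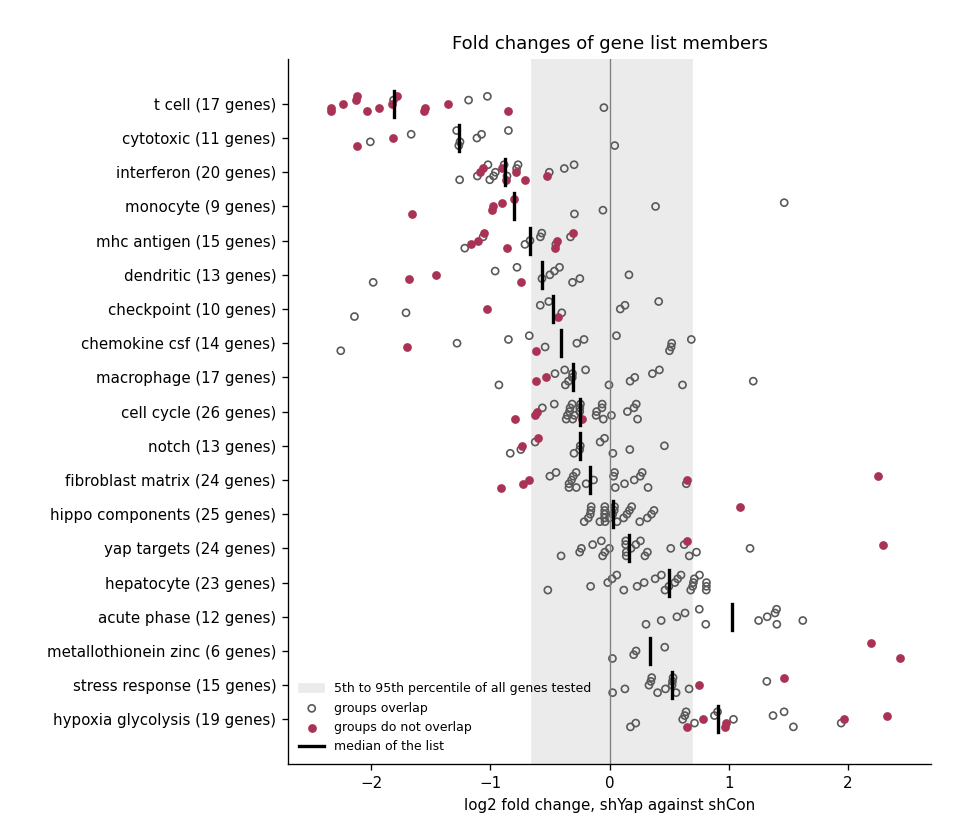
Each row is a gene list and each point the log2 fold change of 1 member, filled where the 4 values of one group all lay above the 4 of the other, with the list median as a bar and the grey band from the 5th to the 95th percentile of all genes tested. The T cell, cytotoxic and interferon lists lie to the left, with medians of -1.81, -1.27 and -0.88, and the hypoxia and glycolysis list lies to the right, with a median of 0.91.

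Interferon-stimulated genes had lower values in shYap across the whole list. All 20 tested had a log2 fold change below 0, 19 of them with an unadjusted p under 0.05, against 46.1% and 6.13% of all genes tested. The median was -0.88. The groups did not overlap in 7 (3.96% of all genes tested), DESeq2 called 8 lower (1.73%), and the 6-library fit called 9 lower (3.61%). Summed levels were 2146, 2351, 1906 and 1503 CPM in shCon replicates 1 to 4 and 1283, 891, 835 and 1448 CPM in shYap replicates 1 to 4. The lowest shCon library, replicate 4, stood close to shYap replicate 4, the highest of its group. The median was -0.73 without shYap replicate 3, with 14 genes at an unadjusted p under 0.05, against 7.95% of all genes in that fit. With the hepatocyte covariate it was -0.93.

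Genes of the factors that carry the interferon signal to the nucleus were in the list. Stat2 (chr10:128270559-128292849), a signal transducer below the type I interferon receptor, was at 103, 129.5, 101 and 102 CPM in shCon and 76.4, 60.4, 46.7 and 69.7 CPM in shYap (log2 fold change -0.79 ± 0.17, adjusted p = 0.158). Irf9, its DNA-binding partner, was at 76.9, 84.9, 78.7 and 74.6 CPM in shCon and 53.02, 45.1, 39.6 and 54.5 CPM in shYap (-0.71 ± 0.13, adjusted p = 0.153). In both genes every shYap library lay below every shCon library.

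Their known target genes showed the same direction. Ifih1, the cytoplasmic RNA sensor MDA5, was at 62.3 to 67.2 CPM in shCon and 40.95 to 48.3 CPM in shYap, with no overlap (-0.53 ± 0.11, adjusted p = 0.158). Ifit2, an antiviral RNA-binding protein, gave -0.87 ± 0.19, and Igtp, a GTPase induced by interferon-gamma, -0.91 ± 0.21, also without overlap. Isg15, a ubiquitin-like modifier, was at 30.9 to 54.8 and 10.6 to 28.4 CPM (-1.09 ± 0.34, adjusted p = 0.294). Irf7 (-1.11 ± 0.34), Mx1 (-1.26 ± 0.404) and the T cell attracting chemokine Cxcl10 (-0.97 ± 0.27) overlapped between the groups, Irf7 and Mx1 by shCon replicate 4 and shYap replicate 4.

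Promoter windows of Stat2 and Igtp are shown because interferon factors recognise the letters they hold. The interferon-stimulated response element was searched as GAAA, any 2 bases and GAAA again, on both strands of the 250 bases before each RefSeq start site. It was found in 10 of the 17 list genes with a window (58.8%), against 3.39% of all tested genes with a window and 2.98% of all 32851 windows. The window of Stat2 was chr10:128270248-128270497 and that of Igtp chr11:58199306-58199555, both on the plus strand, with the motif or its reverse complement in capitals.
Stat2: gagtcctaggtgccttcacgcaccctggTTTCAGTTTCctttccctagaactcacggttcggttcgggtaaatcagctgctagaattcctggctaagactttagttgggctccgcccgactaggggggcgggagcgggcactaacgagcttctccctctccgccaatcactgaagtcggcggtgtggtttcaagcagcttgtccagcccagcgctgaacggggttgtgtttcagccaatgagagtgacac
Igtp: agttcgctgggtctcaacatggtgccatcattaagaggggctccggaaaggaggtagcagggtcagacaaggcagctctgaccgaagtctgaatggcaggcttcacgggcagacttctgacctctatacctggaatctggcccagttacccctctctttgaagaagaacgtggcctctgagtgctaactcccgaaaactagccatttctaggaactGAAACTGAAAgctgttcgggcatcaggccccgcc

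Antigen presentation genes had lower values as well. All 15 tested had a log2 fold change below 0, 13 with an unadjusted p under 0.05 and 7 without overlap, against 46.1%, 6.13% and 3.96% of all genes tested, and the median was -0.67. Psmb9, a subunit of the immunoproteasome, was at 69.1, 62.7, 49.6 and 42.5 CPM in shCon and 30.1, 31.7, 30.1 and 31.6 CPM in shYap. The shYap values lay within a narrow band below all shCon values (-0.86 ± 0.16, adjusted p = 0.153). Nlrc5, the transactivator of class I genes, was at 88.7, 77.9, 67.5 and 40.5 CPM in shCon and 39.5, 31.4, 27.1 and 29.97 CPM in shYap, where shCon replicate 4 stood just above the highest shYap library (-1.102 ± 0.23, adjusted p = 0.158). B2m, the class I light chain, gave -0.57 ± 0.196 (adjusted p = 0.334) with overlapping groups.

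The class II genes mark professional antigen-presenting cells. H2-Aa, a class II chain, was at 724, 547, 461 and 298 CPM in shCon and 285, 316, 95 and 179 CPM in shYap (-1.22 ± 0.39, adjusted p = 0.317), and Cd74, the invariant chain, at 1505, 1256, 1152 and 846 and 783, 806, 261 and 446 CPM (-1.05 ± 0.35, adjusted p = 0.323). In both, shYap replicate 3 was the lowest library and shCon replicate 1 the highest. H2 genes are near-identical to each other in parts, so reads could be split between them in the counting.

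Dendritic cell genes had the same direction, with 12 of 13 lower, 8 of these at an unadjusted p under 0.05 and a median of -0.57. Of all genes tested, 46.1% were lower, and 6.13% were lower at that p. Ccr7, the receptor with which dendritic cells and T cells reach lymph nodes, was at 10.3, 9.204, 5.14 and 4.17 CPM in shCon and 2.58, 2.83, 2.72 and 2.34 CPM in shYap, with no overlap (-1.46 ± 0.31, adjusted p = 0.158). Xcr1, which marks cross-presenting dendritic cells, was at 1.94 to 10.1 and 0.567 to 2.01 CPM (-1.99 ± 0.55, adjusted p = 0.227). Siglech, a marker of plasmacytoid dendritic cells, which are a rich source of interferon, was at 1.24 to 2.15 CPM in shCon and 0.1702 to 0.959 CPM in shYap and did not overlap (-1.68 ± 0.47, adjusted p = 0.234).

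Monocyte genes split by gene. Of 9 tested, 7 had lower values, and 5 of these had an unadjusted p under 0.05 and groups that did not overlap. Among all genes tested, 6.13% were lower at that p and 3.96% were lower without overlap. Ccr2 (chr9:124101950-124113557), the receptor that brings monocytes out of the marrow, was at 88.5, 83.9, 94.7 and 67.2 CPM in shCon and 47.4, 46.9, 32.2 and 41.8 CPM in shYap (log2 fold change -0.99 ± 0.16, adjusted p = 0.149; DESeq2 adjusted p = 1.35e-04). The nearest values were those of shCon replicate 4 and shYap replicate 1, and they did not meet. Ly6c2, a surface marker of inflammatory monocytes, was at 47.6, 67.96, 62.2 and 35.4 CPM in shCon and 17.9, 14.8, 9.59 and 25.1 CPM in shYap (-1.66 ± 0.31, adjusted p = 0.153). Cx3cr1, the fractalkine receptor, gave -0.91 ± 0.18, also without overlap. Fn1, a list member that liver and stromal cells also make, had higher values at 2356 to 2768 CPM in shYap against 1495 to 3072 CPM in shCon, with overlap.

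Macrophage genes differed in both directions. Of 17 tested, 11 had lower values in shYap, 4 with an unadjusted p under 0.05, and 1 of the 6 higher ones reached it. Among all genes tested, 6.13% were lower and 4.76% higher at that p. Fcgr1, the high-affinity Fc receptor, was at 75.98 to 94.3 CPM in shCon and 40.8 to 67.7 CPM in shYap (-0.62 ± 0.17, adjusted p = 0.224), and Cd68, a lysosomal macrophage protein, at 219 to 240.3 and 128 to 205 CPM (-0.53 ± 0.16, adjusted p = 0.2596), both without overlap. Cd14, the lipopolysaccharide coreceptor, was the higher one, at 45.9, 29.6, 22.9 and 53.95 CPM in shCon and 69.6, 67.8, 166 and 48.6 CPM in shYap, the highest in shYap replicate 3 (1.21 ± 0.41, adjusted p = 0.3398; 0.73 ± 0.29 without that library). Arg1, an arginine-degrading enzyme of hepatocytes and of alternatively activated macrophages, was at 38.2, 109, 89.3 and 134 CPM in shCon and 127, 185, 219 and 164 CPM in shYap (0.903 ± 0.34, adjusted p = 0.389), and the groups overlapped by shCon replicate 4.

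Of 14 chemokine and growth factor genes tested, 9 had lower values in shYap, 5 at an unadjusted p under 0.05. Over all genes tested these shares were 46.1% and 6.13%. Ccl4, a chemokine that attracts T cells and macrophages, was at 10.4, 10.3, 7.13 and 3.196 CPM in shCon and 3.04, 2.58, 1.08 and 2.83 CPM in shYap (-1.701 ± 0.43, adjusted p = 0.192). The lowest shCon value, in replicate 4, stood just above the highest shYap value. Ccl8 (-2.26 ± 0.61) and Ccl3 (-1.28 ± 0.38) overlapped between the groups. Neutrophil genes leaned the other way, with 12 of 15 higher (53.9% of all genes tested) and a median of 0.56. An unadjusted p under 0.05 was found for 1 gene in each direction. The median ranged from 0.22 to 0.91 over the alternative fits. As mean log2 CPM minus its mean over all libraries, the list stood at -1.71, 0.34, 0.07 and 0.17 in shCon replicates 1 to 4. In shYap replicates 1 to 4 it stood at -0.72, 0.67, 0.74 and 0.45. The groups overlapped, and shCon replicate 1 lay far below the other shCon libraries.

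Among genes averaging 5 CPM or more, with predicted genes, pseudogenes and receptor segments set aside, the smallest p was that of Il21r (chr7:125603429-125633570), the receptor for interleukin 21 on lymphocytes. In shCon replicates 1 to 4 it had 22.6, 22.9, 21.1 and 21.3 CPM, and in shYap replicates 1 to 4 it had 6.79, 7.17, 8.905 and 11.4 CPM. The shCon values, replicate 4 included, lay within a narrow band, and the nearest shYap library, replicate 4, lay well below it. Its log2 fold change was -1.36 ± 0.19 (adjusted p = 0.149 with edgeR and 3.32e-07 with DESeq2), and leaving out both distant libraries gave -1.39 ± 0.21 (adjusted p = 0.0125).

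Several of the other 14 lower genes with the smallest p under the same limits are known from leukocytes. Fgl2, a secreted immunoregulatory protein, was at 89.5, 72.2, 68.02 and 43.2 CPM in shCon and 25.1, 27.4, 18.9 and 23.4 CPM in shYap (-1.52 ± 0.22). Parvg, an actin-binding protein of blood cells, gave -0.96 ± 0.14, Dock2, which activates Rac in migrating leukocytes, -0.75 ± 0.12, and Ly9, a SLAM family receptor, -1.203 ± 0.199. Ms4a4b, a T cell membrane protein, gave -2.13 ± 0.33. Interferon-inducible genes followed with Ifi203 (-0.87 ± 0.15), Tgtp2 (-1.33 ± 0.24) and Gvin1 (-1.22 ± 0.21), and the inflammasome sensor Nlrp1b gave -0.99 ± 0.18. Abcg1, which exports cholesterol from cells, was at 38.5 to 55.2 CPM in shCon and 20.7 to 29.4 CPM in shYap (-0.93 ± 0.17). The zinc finger gene Zfp469 (-1.17 ± 0.199) and the homeobox gene Hoxd3 (-1.01 ± 0.18) were also in this set, beside Ccr2 and Notch1. None of these genes overlapped between the groups, and their adjusted p ran from 0.149 to 0.153.

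Notch1 (chr2:26457903-26516663) separated the labels with little spread. It encodes a receptor that is cut on ligand binding to release a transcriptional coactivator. Its level was 56.6, 60.4, 60.7 and 60.9 CPM in shCon and 33.6, 37.6, 39.99 and 32.2 CPM in shYap, and shCon replicate 4 lay with its own group here. The log2 fold change was -0.73 ± 0.12 (adjusted p = 0.149; DESeq2 adjusted p = 3.47e-05). Its target Hes1, a repressor, was at 32.95, 35.8, 43.9 and 26.5 CPM in shCon and 23.3, 21.6, 20.7 and 26.1 CPM in shYap, where the nearest values, shCon replicate 4 and shYap replicate 4, nearly met (-0.604 ± 0.17, adjusted p = 0.234). Nrarp, a feedback inhibitor of Notch, gave -0.62 ± 0.26 (adjusted p = 0.4205) with overlapping groups. Over the 13 Notch pathway genes tested, 10 had lower values, 3 of these at an unadjusted p under 0.05. Of all genes tested, 46.1% were lower, and 6.13% were lower at that p. The median of the Notch list was -0.25, or -0.39 in the 6-library fit.

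**Figure D3:**
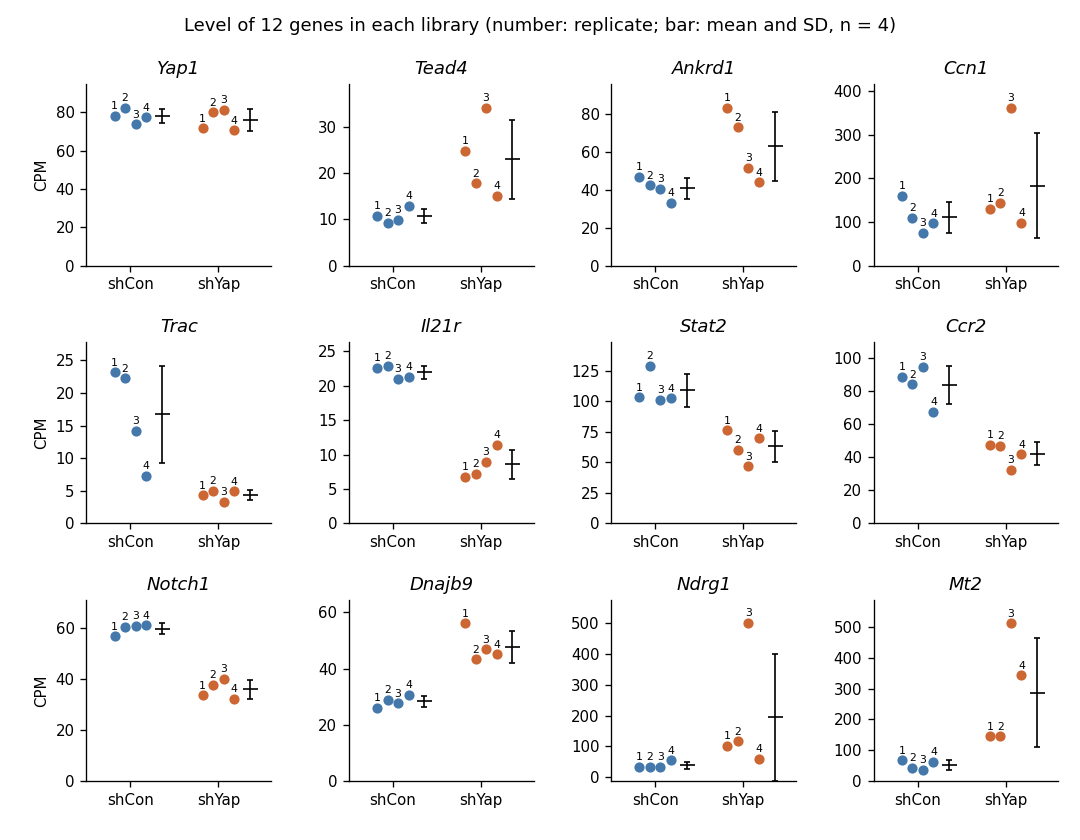
Each panel shows the CPM of 1 gene in each library, with the replicate number beside the point and the mean and SD of 4 libraries at the right of each group. Yap1 overlaps between the labels, Il21r, Notch1 and Dnajb9 separate them with little spread, and Ndrg1 and Mt2 are highest in shYap replicate 3, at 501 and 511 CPM.

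Proliferation genes had lower values in part. Of 26 cell cycle genes tested, 21 had lower values in shYap, 7 with an unadjusted p under 0.05 and 4 without overlap, against 6.13% and 3.96% of all genes tested, and the median was -0.25. The summed level was 3340.0, 3277, 3308 and 3022 CPM in shCon replicates 1 to 4 and 3872, 3163, 2307 and 2474 CPM in shYap replicates 1 to 4, with shYap replicate 1 the highest of all 8 libraries and replicates 3 and 4 the lowest. Leaving out shYap replicate 3 brought the median to -0.11, with 4 genes lower and 1 higher at an unadjusted p under 0.05. Among all genes in that fit these shares were 7.95% and 6.33%. Bub1b, a kinase of the spindle checkpoint, was at 93.6, 94.8, 93.7 and 81.1 CPM in shCon and 59.2, 60.7, 64.5 and 53.7 CPM in shYap (-0.61 ± 0.11, adjusted p = 0.153). Pcna, the clamp of DNA replication, was at 164, 145, 158 and 112 CPM in shCon and 108, 97.95, 77.9 and 90.95 CPM in shYap (-0.63 ± 0.16, adjusted p = 0.192). In both, the lowest shCon library was replicate 4, and it lay above all shYap libraries. Ccne1, which encodes cyclin E1, gave -0.79 ± 0.21 without overlap, while Mki67, the proliferation antigen Ki-67, overlapped between the groups (-0.24 ± 0.19, adjusted p = 0.711).

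Matrix genes differed member by member, with 13 of 24 lower, 3 of these at an unadjusted p under 0.05, and a median of -0.17. The list leaned lower without shYap replicate 3, with 17 of 24 lower, 8 of these at an unadjusted p under 0.05, and a median of -0.32. Among all genes tested, 6.13% were lower at that p with all libraries and 7.95% without shYap replicate 3. Col1a1, the main chain of type I collagen, was at 1383, 1604, 1230.3 and 1495 CPM in shCon and 978, 909.6, 637 and 1047 CPM in shYap (-0.68 ± 0.18, adjusted p = 0.208). Col6a3, a chain of type VI collagen (-0.73 ± 0.19), and the proteoglycan lumican, Lum (-0.91 ± 0.24), had lower values as well, and none of the 3 overlapped. Pdpn, the glycoprotein podoplanin, had higher values, at 37.6 to 57.3 CPM in shYap against 25.9 to 36.7 CPM in shCon (0.65 ± 0.17, adjusted p = 0.208). Mfap5, a microfibril protein, was at 0.451, 0.382, 0.278 and 2.32 CPM in shCon and 4.004, 2.73, 5.39 and 4.297 CPM in shYap (2.25 ± 0.63, adjusted p = 0.237; 6-library fit 3.297 ± 0.36, adjusted p = 0.00907), and shCon replicate 4 stood closer to the shYap than to the other shCon libraries. Among matrix proteases and their inhibitors, Mmp10 (stromelysin 2) had lower values (-1.99 ± 0.42, adjusted p = 0.158), while Timp2, an inhibitor of metalloproteases (0.58 ± 0.16), had higher values, without overlap in both genes.

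Genes that respond to low oxygen and those of glycolysis had higher values in shYap. All 19 tested had a log2 fold change above 0, as had 53.9% of all genes tested, 17 with an unadjusted p under 0.05 and 6 without overlap (4.76% and 2.61% of all genes in this direction), and the median was 0.91. DESeq2 called 7 of them higher, against 0.748% of all genes. Much of the size came from 1 library: the summed level was 3302, 3961, 3649 and 4552 CPM in shCon replicates 1 to 4 and 5782, 5627, 10715 and 4876 CPM in shYap replicates 1 to 4. All shYap libraries lay above all shCon libraries, but shYap replicate 3 stood far above the other 3. Without it the median was 0.53, and 12 genes were higher and 1 was lower at an unadjusted p under 0.05, against 6.33% and 7.95% of all genes tested in that fit. The 6-library fit called 6 of 19 higher, against 3.92% of all genes. With the hepatocyte covariate the median was 0.895.

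Ndrg1 (chr15:66929318-66969640), a gene strongly induced by hypoxia, was at 33.5, 33, 33.4 and 54.9 CPM in shCon and 101, 116, 501 and 58.5 CPM in shYap. Its shCon replicate 4 and shYap replicate 4 nearly met, and shYap replicate 3 stood far above the rest. For Ndrg1 the log2 fold change was 2.33 ± 0.64 (adjusted p = 0.233) with all libraries, 1.27 ± 0.27 without shYap replicate 3 and 1.47 ± 0.23 (adjusted p = 0.0142) in the 6-library fit. Bnip3, a mitochondrial protein of mitophagy, was also highest in shYap replicate 3, at 31.4, 29.3, 31.7 and 42.3 CPM in shCon and 43.6, 91.3, 302 and 91.1 CPM in shYap (1.97 ± 0.53; 1.18 ± 0.26 without shYap replicate 3). Pgk1, the glycolytic phosphoglycerate kinase, was at 90.4, 86.4, 89.2 and 115 CPM in shCon and 152, 150.2, 289.9 and 156 CPM in shYap. Here shYap replicates 1, 2 and 4 lay close together and above shCon replicate 4 (0.97 ± 0.23, adjusted p = 0.178; 0.79 ± 0.101, adjusted p = 0.0101 in the 6-library fit).

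Eno1, which encodes enolase, was at 562 to 684 CPM in shCon and 774 to 1095 CPM in shYap, with no overlap (0.65 ± 0.16, adjusted p = 0.184). Gapdh gave 0.78 ± 0.29, or 0.4996 ± 0.23 without shYap replicate 3, and Ldha, lactate dehydrogenase A, 0.64 ± 0.204, the latter with overlap through shCon replicate 4 alone, at 747 CPM. Slc2a1, the glucose transporter GLUT1 (1.54 ± 0.51), and Vegfa, the angiogenic growth factor (1.04 ± 0.39), overlapped between the groups through shYap replicate 4 alone. Both were highest in shYap replicate 3, and leaving it out gave 0.897 ± 0.35 for Slc2a1 and 0.53 ± 0.205 for Vegfa. Eno1, Gapdh and Pgk1 have processed copies elsewhere in the genome, so their reads could be split in the counting.

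The promoter of Pgk1 (chrX:106186850-106187099, plus strand) is shown for the letters ACGTG, the core recognised by the hypoxia-inducible factors. They occurred on either strand in 12 of 18 list genes with a window (66.7%), against 24.1% of all tested genes with a window and 16.6% of all windows. The same 5 letters form part of the E box CACGTG, which other factors recognise. Both places in the Pgk1 window are in capitals.
Pgk1: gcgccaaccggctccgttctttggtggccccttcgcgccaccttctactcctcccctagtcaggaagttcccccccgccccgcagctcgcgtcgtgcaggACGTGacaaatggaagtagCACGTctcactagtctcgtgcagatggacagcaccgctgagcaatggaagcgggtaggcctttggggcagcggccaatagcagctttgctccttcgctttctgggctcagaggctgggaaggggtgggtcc

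Genes of lipid uptake and storage had higher values in part, with 11 of 16 above 0 and 4 at an unadjusted p under 0.05, against 53.9% and 4.76% of all genes tested. The median was 0.26 with all libraries, 0.52 without shCon replicate 4 and 0.41 without shYap replicate 3, but -0.04 with the hepatocyte covariate, where 8 genes were lower and 8 higher. Plin2, the coat protein of lipid droplets, was at 177, 226, 157 and 339 CPM in shCon and 347, 356, 415 and 388 CPM in shYap, where shCon replicate 4 reached almost to the lowest shYap value (0.74 ± 0.23, adjusted p = 0.292; 6-library fit 0.97 ± 0.15, adjusted p = 0.0149). Angptl4, an inhibitor of lipoprotein lipase, gave 1.81 ± 0.49 with overlapping groups, and 1.26 ± 0.38 without shYap replicate 3, its highest library. Hilpda, a hypoxia-induced droplet protein, gave 1.197 ± 0.49, which became 0.39 ± 0.16 without shYap replicate 3. Outside this list, Pdk4, the kinase that turns off pyruvate oxidation in fasting, was at 1.85, 1.29, 0.925 and 5.81 CPM in shCon and 6.29, 9.997, 53.99 and 9.14 CPM in shYap (3.004 ± 0.86, adjusted p = 0.257). Its groups did not overlap, although shCon replicate 4 was close to shYap replicate 1, and the value was 1.798 ± 0.59 without shYap replicate 3.

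Genes of the unfolded protein and amino acid stress responses had higher values throughout the list. All 15 tested had a log2 fold change above 0, 6 with an unadjusted p under 0.05, against 53.9% and 4.76% of all genes tested. The median was 0.52, and it was 0.36 with the hepatocyte covariate, where 14 genes were higher and 1 was lower. The 6-library fit called 9 higher, against 3.92% of all genes. Dnajb9 (chr12:44205559-44210326), a cochaperone of the endoplasmic reticulum, had the smallest p of the genes with higher values. It was at 26.2, 28.9, 27.7 and 30.6 CPM in shCon and 56.1, 43.4, 46.9 and 45.1 CPM in shYap, with a log2 fold change of 0.75 ± 0.13 (adjusted p = 0.149; DESeq2 adjusted p = 1.26e-04). Neither of the distant libraries departed from its group for this gene. Ddit3, the stress factor CHOP, was at 8.61 to 10.3 CPM in shCon and 19.1, 18.1, 55.1 and 11.4 CPM in shYap replicates 1 to 4 (1.46 ± 0.44, adjusted p = 0.293). Its groups did not overlap, and the value was 0.81 ± 0.196 without shYap replicate 3.

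Trib3, a pseudokinase induced by CHOP and ATF4, was at 13.3, 12.1, 9.99 and 26.8 CPM in shCon and 64.98, 36.96, 29.9 and 23.4 CPM in shYap, and overlapped by shCon replicate 4 (1.32 ± 0.396, adjusted p = 0.287). Hspa5, the chaperone BiP, gave 0.53 ± 0.18, and Herpud1, a part of the degradation machinery of the endoplasmic reticulum, 0.52 ± 0.19. Both overlapped between the groups by shCon replicate 4 (adjusted p = 0.324 for Hspa5 and 0.366 for Herpud1). Slc7a11, the cystine importer, was at 1.002, 0.62, 1.16 and 3.49 CPM in shCon and 17.9, 9.04, 3.12 and 3.86 CPM in shYap (2.44 ± 0.703, adjusted p = 0.262). The highest level was in shYap replicate 1, and shYap replicate 3 lay below shCon replicate 4.

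The metallothioneins Mt1 and Mt2, small proteins that bind zinc and copper, had large differences. Mt2 (chr8:94172664-94173568) was at 67.6, 42.4, 37.2 and 63.4 CPM in shCon and 146, 145, 511 and 343 CPM in shYap, and Mt1 at 33.6, 29.3, 21.01 and 49.5 CPM in shCon and 70.3, 88.6, 270.1 and 182 CPM in shYap. Both separated the labels, with shYap replicates 3 and 4 above shYap replicates 1 and 2. The log2 fold change was 2.44 ± 0.44 (adjusted p = 0.153) for Mt2 and 2.196 ± 0.45 (adjusted p = 0.158) for Mt1, and 2.11 ± 0.38 and 2.02 ± 0.35 in the 6-library fit. The other 4 genes of metal handling tested had log2 fold changes above 0 with no unadjusted p under 0.05.

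The promoter of Mt2 (chr8:94172368-94172617, plus strand) is shown for its metal response elements. These were searched as TGCACNC or TGCGCNC on both strands, and such letters stood in 3 of the 5 list genes with a window, Mt1, Mt2 and Slc30a1, against 33.0% of all tested genes with a window. The Mt2 window held 3 places, shown in capitals.
Mt2: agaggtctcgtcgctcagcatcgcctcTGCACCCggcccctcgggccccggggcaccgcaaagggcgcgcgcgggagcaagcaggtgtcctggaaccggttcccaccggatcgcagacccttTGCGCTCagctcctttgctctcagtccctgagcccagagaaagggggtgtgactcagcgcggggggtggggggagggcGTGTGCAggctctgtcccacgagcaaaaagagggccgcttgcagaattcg

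Several secreted and surface proteins were among the 15 higher genes with the smallest p at 5 CPM or more. Lgals3, which encodes the lectin galectin-3, was at 124, 128, 108 and 122 CPM in shCon and 308, 213, 325 and 182 CPM in shYap. All shYap libraries lay above the shCon libraries, replicate 4 the least (1.09 ± 0.19, adjusted p = 0.153). Spp1, which encodes osteopontin, was at 403 to 450.3 CPM in shCon and 599 to 864 CPM in shYap (0.67 ± 0.15, adjusted p = 0.167). Htra1, a secreted serine protease, gave 0.71 ± 0.15, the integrin-like Itgbl1 1.18 ± 0.26, the growth factor Pdgfc 0.92 ± 0.21, and the oncostatin M receptor, Osmr, 0.72 ± 0.16. Aqp1, a water channel of endothelium and bile ducts, was at 86.3, 93.1, 91.01 and 104 CPM in shCon and 299, 233, 124 and 165 CPM in shYap, lowest among the latter in replicate 3 (1.13 ± 0.25, adjusted p = 0.158), and Esm1, a proteoglycan of sprouting endothelium, gave 1.14 ± 0.25.

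The remaining members of this set were the enzymes Glce (0.93 ± 0.198) and B3gnt2 (0.86 ± 0.19), which modify heparan sulfate and poly-lactosamine chains, Cyb561 (0.86 ± 0.19) and Epb41l4a (0.82 ± 0.17). None of the 15 overlapped between the groups, and their adjusted p ran from 0.149 to 0.175. Outside it, the adhesion gene Itgb3, the beta chain of the vitronectin receptor (0.54 ± 0.14), also separated the labels.

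Acute phase genes, which the liver makes in inflammation, all had higher values in shYap, with a wide spread within both groups. All 12 tested were above 0, with a median of 1.03, 1 at an unadjusted p under 0.05 and no gene without overlap. Over all genes tested these shares were 53.9%, 4.76% and 2.61% in this direction. Hp, which encodes haptoglobin, was at 650.1, 1728, 1295 and 3059.7 CPM in shCon and 2522, 3558, 674 and 3207 CPM in shYap (0.57 ± 0.56, adjusted p = 0.789). Saa1, which encodes serum amyloid A1, was at 4.66, 34.7, 16.7 and 173 CPM in shCon and 201, 319, 16.4 and 61.9 CPM in shYap (1.39 ± 1.12, adjusted p = 0.728). In both genes shCon replicate 4 stood with the shYap libraries and shYap replicate 3 with the shCon libraries. The 6-library fit gave larger values, 1.34 ± 0.33 for Hp and 3.38 ± 0.78 for Saa1, and called 9 of the 12 higher, against 3.92% of all genes. With the hepatocyte covariate the list kept a median of 0.67, with 11 of 12 above 0 and 8 at an unadjusted p under 0.05. Without shCon replicate 4 the median was 1.67, with 7 at that p. More genes reached that p in these 2 fits, with 8.15% and 7.46% of all genes higher. The hepatocyte list had the same pattern, with a median of 0.497 with all libraries, 1.19 in the 6-library fit and no gene at an unadjusted p under 0.05 in the fit of all 8.

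**Figure D4:**
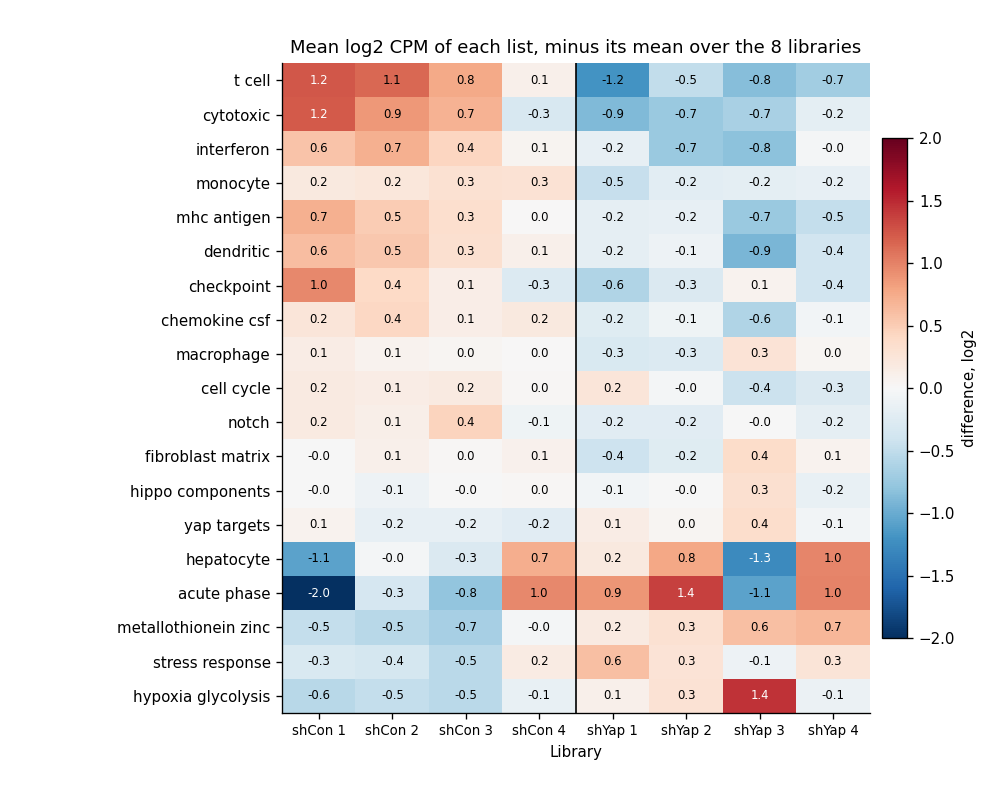
Each cell gives, for 1 list and 1 library, the mean log2 CPM of the list's genes minus its mean over the 8 libraries, in red above and blue below it. The T cell and interferon lists stand above 0 in every shCon library and below 0 in every shYap library, while the hepatocyte and acute phase lists lie above and below 0 within both labels.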

How the data were processed

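RNA of tumour tissue was sequenced, and the authors deposited 1 table of estimated counts per gene for these 8 libraries, which need not be whole (62.6% were). The table's name points to the expectation-maximisation quantification of Partek. Per the submitters' processing notes, which state neither role nor order, the tools were STAR 2.7.3a, Partek and DESeq2, and the builds GRCm38 and mm10. Strand and annotation are not given in the sources used here, so overlapping genes cannot be separated. Of the genes, 97.2% matched GENCODE M21 by symbol, start and strand, and locations are taken from it. Of 23 symbols turned into dates, 21 were restored by position.

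Counts were rounded, scaled by TMM and tested with edgeR 4.0.16 in R 4.3.3 (filterByExpr, robust quasi-likelihood F test, no covariate), adjusted after Benjamini-Hochberg over all genes tested, at 0.05. The SE is the log2 fold change over the square root of F. CPM use TMM-scaled library sizes. The scripts were tested on simulated data. Alternatives were DESeq2 1.42.0, limma 3.58.1 voom with and without library weights, RLE and upper-quartile factors, no filter or 1 CPM in 4 libraries, a replicate block, a hepatocyte covariate, and leaving out single libraries. The fit without shCon replicate 4 and shYap replicate 3 and a block by column number were added after seeing the data. The 62 gene lists and all choices were made with earlier results of these data known. In 1 list, of histone genes, no symbol matched, and it was not analysed here.

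Genes named are 10 of the YAP pathway, the 15 smallest p in each direction among genes averaging 5 CPM or more (predicted genes, pseudogenes and receptor segments set aside) and, for each list, the 4 or fewer members with the smallest p. Of these, 100 are in the tables of gene results and some others are not reported here. A further 22 were chosen after their values were seen: Trac, Cd8a, Cd4, Foxp3, Gzmb, Cd274, Igtp, Irf7, Mx1, Isg15, H2-Aa, Cd74, Fn1, Ldha, Slc2a1, Vegfa, Herpud1, Mki67, Mfap5, Hp, Saa1 and Vil1. Promoter windows are the 250 bases before RefSeq start sites in GRCm38.p6.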

Additional observations from a re-analysis of the deposited data

Results flagged for a closer look

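A single library stood away from the other 3 of its group by more than Dixon's 95% critical value for 4 samples, taken as the gap over the group's range, in 27 of 294 groups of values (9.18%). For independent, normally distributed values chance flags about 1 in 20. These groups come from the same libraries, and many genes were chosen by p or after their values were seen, so that rate need not hold here. The library was shYap replicate 3 in 12 cases and shCon replicate 4 in 10.

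In shYap replicate 3 the highest values of the group were Pgk1 at 289.9 CPM, Ndrg1 at 501 CPM, Gapdh at 1909 CPM, Hilpda at 64.8 CPM and Pdk4 at 53.99 CPM. Spp1 was at 864 CPM and Itgbl1 at 110.2 CPM there, again above the other shYap libraries. The same library had the highest summed level of the hypoxia and glycolysis list, 10715 CPM, of the checkpoint list, 270.4 CPM, and of the Notch list, 546 CPM. It had the lowest Nrarp, at 13.9 CPM, and the lowest Dock2, at 25.7 CPM.

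In shCon replicate 4 the highest values of the group were Pgk1 at 115 CPM, Ndrg1 at 54.9 CPM, Mfap5 at 2.32 CPM and Itgbl1 at 32.5 CPM. The lowest of the group were Mx1 at 17.3 CPM, Bub1b at 81.1 CPM, Mki67 at 374 CPM, Ifi203 at 83.3 CPM and Nlrp1b at 8.81 CPM, and the summed dendritic cell list at 701 CPM.

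Other libraries were singled out in 5 cases. Lag3 was lowest in shYap replicate 1, at 2.79 CPM, and Cyb561 highest there, at 41.1 CPM. Stat2 was highest in shCon replicate 2, at 129.5 CPM, Notch1 lowest in shCon replicate 1, at 56.6 CPM, and the lipid uptake and storage list highest in shYap replicate 2, at 1385 CPM.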

How the results depend on the processing

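The count of genes past an adjusted p of 0.05 depended on the tool and on single libraries. It was 0 in the main edgeR fit, and 0 with limma voom, RLE or upper-quartile factors, no filter or the 1 CPM filter, against 410 with DESeq2, 2030 with limma voom and library quality weights (1156 lower, 874 higher) and 1 with the hepatocyte covariate. Leaving out 1 library at a time gave 0 to 94 genes: 94 without shCon replicate 4, 1 without shYap replicate 4 and 0 in the other 6 fits. Without both shCon replicate 4 and shYap replicate 3 it gave 1255. Genes whose groups did not overlap numbered 1089 with all libraries and 5328 without these 2, where 3 values a side overlap less often by construction. Whether the replicate numbers of the titles pair the samples is not said by the labels. The deviations of same-numbered libraries correlated at 0.006, -0.05, 0.18 and 0.18, and not every library correlated best with its own number. With so few libraries, 2 of them distant, these correlations cannot decide whether samples were paired. With the replicate number as a block 0 genes were called, and with the column number of the table as a block also 0.

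Across all fits, those with libraries left out included, the log2 fold change of Yap1 lay between -0.075 and 0.0069, the latter without shCon replicate 2. Signs reversed for 5 of the other 120 genes in 19 of 2280 values. Wwtr1 was at -0.103 with library weights, and between -0.231 and 0.219 with libraries left out, negative without shYap replicate 3. Tead1 was at -0.000454 with library weights and between -0.0977 and 0.145 with libraries left out, negative without shCon replicate 2 or shYap replicate 3. Tead2 lay between -0.682 and 0.0534 with libraries left out, positive without shYap replicate 1. Lats2 was at 0.00321 with DESeq2 and with RLE factors, 0.0144 without a filter, 0.0302 with the hepatocyte covariate, 0.137 with the column block, and between -0.173 and 0.168 with libraries left out. Epcam was at -0.0161 with the hepatocyte covariate and between -0.15 and 1.06 with libraries left out. The cause of these changes was not tested. In 290 of the 2280 values a gene uncalled in the main comparison was called.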

Other observations

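Some gene groups without a place in the text above are given here, and others are not reported. All 7 erythroid genes tested had higher values in shYap, 1 at an unadjusted p under 0.05, with a median log2 fold change of 0.87. Their summed level was 105, 232, 142 and 468 CPM in shCon replicates 1 to 4 and 104, 358, 820 and 477 CPM in shYap replicates 1 to 4. The groups overlapped, and the median was 0.43 without shYap replicate 3. The 13 genes of the mitochondrial genome all had lower values in shYap, with a median log2 fold change of -0.26, and none had an unadjusted p under 0.05. Leaving out shYap replicate 3 brought this median to -0.07, with 11 lower and 2 higher. The 14 nuclear genes of oxidative phosphorylation split into 7 lower and 7 higher with a median of -0.02. Of 18 fatty acid oxidation genes tested, 17 had higher values, 2 at an unadjusted p under 0.05, against 53.9% and 4.76% of all genes. Their median was 0.33, which was 0.53 without shCon replicate 4 and 0.14 with the hepatocyte covariate. Of 20 genes of cholesterol synthesis, 15 had higher values and none had an unadjusted p under 0.05; the median was 0.13 with all libraries, 0.46 without shCon replicate 4, 0.43 without shYap replicate 3, 0.74 in the 6-library fit and -0.13 with the hepatocyte covariate. The 13 genes of the microRNA machinery had a median of 0.01, and the 17 genes of extracellular vesicles one of 0.04, both close to that of all genes.

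Of the Kupffer cell genes, those of the macrophages resident in liver, 7 of 8 had higher values in shYap, and their summed level was 95.8, 209, 173 and 355 CPM in shCon replicates 1 to 4 and 273, 359, 95.2 and 448 CPM in shYap replicates 1 to 4. The lowest levels were again in shCon replicate 1 and shYap replicate 3, and with the hepatocyte covariate the median was 0.04, against 0.55 without it, 0.97 without shCon replicate 4 and 0.897 without shYap replicate 3.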
